A study of Homo sapiens with 24 samples.

Results

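Collagens, laminins and the glycoproteins that bind them make up the scaffold that cells secrete around themselves. A list of 42 such human genes was followed in T-47D cells, an established line of luminal, estrogen receptor positive breast cancer cells. A gene was measured where the array's annotation paired a probe set with its symbol alone. This held for 40 of the 42 genes, each with 1 probe set. The other 2 genes were not analysed here. Members were taken by gene name, with no rule on measured values, and integrins and proteases were kept off the list. Of the 40, 7 encode basement membrane collagens, 8 laminin chains, 4 laminin linkers or basement membrane proteoglycans and 1 the anchoring fibril collagen. A further 6 encode fibrillar collagens, 8 other collagens and 6 matrix glycoproteins.

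A basement membrane is a thin sheet of collagen IV and laminin networks, tied together by nidogens and heparan sulfate proteoglycans, on which epithelial cells sit. Each laminin is a trimer of an α, a β and a γ chain, so that the chains a cell makes decide which laminins it can assemble. Fibrillar collagens form the ropes of the connective tissue stroma, which in a tumor is made mostly by fibroblasts rather than by the cancer cells.

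The study asked how heregulin (HRG), a ligand of the ErbB3 and ErbB4 receptors, changes gene expression in these cells, and what silencing of P-Rex1, a guanine nucleotide exchange factor for the small GTPase Rac, does to that response. There were 8 groups of 3 biological replicates, 24 arrays in all: parental cells, cells with a non-target control RNAi (NTC), and cells with P-Rex1 RNAi #1 or RNAi #2, each kept in vehicle or given HRG (20 ng/ml, 6 h). Parental cells received no duplex, the RNAi was a transient transfection, and all groups are 1 cell line, starved of serum before HRG. The starvation time of the parental cells was not given in the sources used here.

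All expression values below are on the log2 scale of the Affymetrix Human Gene 1.0 ST array. The array medians lay between 6.04 and 6.18. A difference was called when limma gave an adjusted p under 0.05 and the fold change was over 1.5, and passing the adjusted p alone is named as such. PREX1 itself, the silenced gene, lay between 10.36 and 10.63 on the control vehicle arrays and between 8.91 and 9.09 on the vehicle arrays of the silenced cells. With HRG it lay between 9.30 and 9.64 in the controls and between 8.45 and 8.83 in the silenced cells. On the first principal component, with 53.6% of the variance, vehicle arrays lay between 16.1 and 19.4. HRG arrays lay between -5.29 and -8.97 with RNAi #2 and between -14.5 and -27.5 in the other cells. The 4 lowest values on the second principal component, which carried 10.9% of the variance, were those of parental vehicle replicate 3, NTC HRG replicate 3, RNAi #1 vehicle replicate 2 and RNAi #2 HRG replicate 3, from -11.3 to -17.5. The other 20 arrays lay between -7.08 and 11.7, the highest being RNAi #2 HRG replicate 1. Counts are also given without these 4 arrays low on that component.

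The sequences before the starts of genes that rose with HRG are shown so that they can be set beside each other. RefSeq promoter windows on the GRCh38.p14 assembly were held for 32 of the 40 members, in 38 windows, and COL5A2 had none. The 250 bases before a start are printed 5′ to 3′ on the gene's strand for LAMB3, LAMC1 and PRG4, 3 of the 4 members called with HRG in at least 1 kind of cell. Capitals mark matches on either strand to any of the motifs searched. The AP-1 motif was spelled TGANTCA. The TATA box was spelled TATAAA. The GC box was spelled GGGCGG. LAMB3 had 3 windows, of which the first and the most internal are shown. No printed motif overlaps another.
LAMB3, first start, chr1:209652426-209652675, minus strand: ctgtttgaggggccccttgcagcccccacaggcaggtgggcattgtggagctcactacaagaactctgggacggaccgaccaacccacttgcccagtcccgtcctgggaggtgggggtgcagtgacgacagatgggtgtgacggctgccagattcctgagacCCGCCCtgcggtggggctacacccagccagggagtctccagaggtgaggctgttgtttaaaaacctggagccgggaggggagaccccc
LAMB3, internal start, chr1:209651375-209651624, minus strand: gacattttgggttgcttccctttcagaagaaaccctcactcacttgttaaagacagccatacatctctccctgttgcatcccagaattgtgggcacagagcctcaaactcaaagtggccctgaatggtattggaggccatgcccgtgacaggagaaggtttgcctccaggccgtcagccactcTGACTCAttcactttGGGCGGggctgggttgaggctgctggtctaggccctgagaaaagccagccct
LAMC1, chr1:183023170-183023419, plus strand: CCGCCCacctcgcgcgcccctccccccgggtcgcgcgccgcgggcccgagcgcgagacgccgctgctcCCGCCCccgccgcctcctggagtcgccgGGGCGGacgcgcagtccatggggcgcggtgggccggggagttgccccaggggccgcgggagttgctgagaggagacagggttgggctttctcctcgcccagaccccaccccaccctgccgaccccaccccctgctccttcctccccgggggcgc
PRG4, chr1:186296023-186296272, plus strand: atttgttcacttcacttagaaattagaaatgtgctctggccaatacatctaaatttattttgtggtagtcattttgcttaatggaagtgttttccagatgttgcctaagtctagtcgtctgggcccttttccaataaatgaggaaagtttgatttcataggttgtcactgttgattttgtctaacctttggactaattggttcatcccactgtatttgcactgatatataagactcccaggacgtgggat
The window before the internal LAMB3 start held the AP-1 letters 67 bases upstream, and it was the 1 member window of 38 that did, against 6.57% of all 35116 windows. A GC box stood 88 bases before the first LAMB3 start and 52 before the internal one. LAMC1 had GC boxes at 3 places and a GC content of 79.6%. The PRG4 window held none of the motifs and had a GC content of 37.2%. GC boxes were found in 27 of the 38 member windows and in 42.6% of all windows, and TATAAA in 4 member windows and in 10.7% of all. The cAMP response element TGACGTCA was in 0 member windows and in 1.65% of all. A match is a run of letters and says nothing of a factor bound there, and the array does not tell which LAMB3 start was used.

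The level at which T-47D cells gave signal for these genes varied widely. Array values of different probe sets are not comparable as amounts of RNA, so each is set here against the distribution of all probe sets tested. The brightest members were THBS1 (thrombospondin-1, a matricellular glycoprotein that activates latent TGF-β) at a mean of 11.58 over the 24 arrays, COL12A1 (a collagen that sits on the surface of fibrils) at 9.88, and the laminin chains LAMB2, LAMC1 and LAMB1 at 9.45, 9.19 and 9.15. The THBS1 probe set was brighter than 98.5% of those tested. Basement membrane components other than collagen IV followed, with AGRN (agrin, a heparan sulfate proteoglycan) at 8.80 and LAMA5, an α chain widespread in epithelia, at 8.11.

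The dimmest were COL8A1 (a short-chain collagen) at 3.71, FBN1 (fibrillin-1, the core of elastic microfibrils) at 3.98, NID2 (nidogen-2) at 4.12, LAMA4 (an α chain of vascular and mesenchymal laminins) at 4.26 and COL6A3 (a chain of beaded microfibrils) at 4.37. COL8A1, FBN1 and NID2 lay in the lowest 25% of all 28536 probe sets of the array on 24 of 24 arrays and LAMA4 on 20. Among the probe sets tested, the mean of 14 members was in the lowest 25%, COL4A1, COL4A3, COL4A4 and COL4A6 among them. At this brightness array values are compressed, so a change there would be understated. The collagen I chains COL1A1 and COL1A2 read 7.43 and 5.79.

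**Figure D1:**
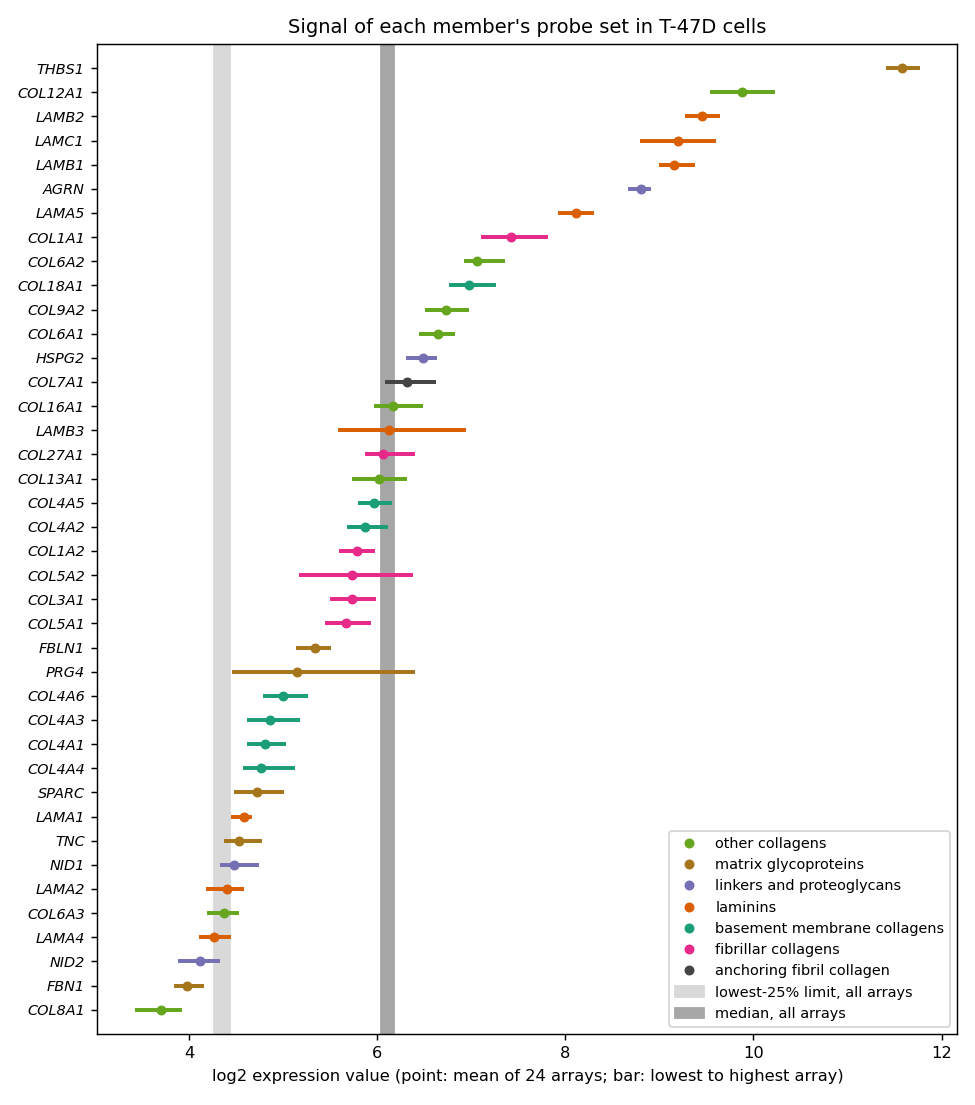
Mean log2 expression value of each of the 40 members over 24 arrays (point) with the lowest and highest array (bar), coloured by role, with the spread of the array medians and of the lowest-25% limits as grey bands. THBS1 at 11.58 is the brightest, COL8A1 at 3.71 the dimmest, and the longest bars are those of PRG4, LAMB3 and COL5A2.

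Markers fixed for cell types matched the label of the line. All 10 luminal epithelial markers lay above the 75th percentile of the probe sets tested, and all 7 endothelial markers below the 25th. Of the fibroblast markers 3 of 10, and of the leukocyte markers 3 of 5, were below the 25th percentile. The mean of the fibroblast list ranged from 5.48 to 5.60 over the control vehicle arrays and from 5.68 to 5.78 over the control HRG arrays, and 2 of its 10 genes were called higher with HRG: ACTA2 (smooth muscle actin, 1.13) and LUM (lumican, 0.71). COL1A1, COL1A2 and COL3A1 are members and on the fibroblast list too. Of the luminal markers ESR1 and PGR, the estrogen and progesterone receptors, were called lower at -1.04 and -0.81, of the leukocyte markers CD68 was called higher at 0.82, and of the endothelial markers 0 were called. The part of these markers in the results below was not tested. In bulk RNA, a larger share of cells making a transcript and more transcript per cell cannot be told apart.

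HRG raised few of the matrix genes. In parental cells 3 of the 40 members were called higher and 0 lower, where 2.86% of all probe sets were called higher and 2.41% lower. The 3 were LAMB3, LAMC1 and PRG4. In NTC cells 3 were called higher, LAMB3, COL5A2 and PRG4, and 0 lower, against 2.64% and 3.37% of all probe sets. In the mean of the parental and NTC effects, LAMB3, COL5A2 and PRG4 were called higher and 0 members lower, against 2.6% and 2.69%. The unadjusted p was under 0.05 for 2 members in the lower direction there, COL12A1 and LAMB2, which also passed the adjusted p. With the adjusted p alone, 6 members passed in parental and 8 in NTC cells, against 30.8% and 31.2% of all probe sets.

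LAMB3 encodes the β3 chain, which is found in the epithelial laminin that anchors hemidesmosomes. In parental cells it lay at 6.13, 5.92 and 5.87 on the vehicle arrays and at 6.92, 6.68 and 6.84 on the HRG arrays. In NTC cells the vehicle arrays read 5.81, 5.91 and 5.89 and the HRG arrays 6.47, 6.45 and 6.61. Each HRG array was above each vehicle array in both kinds of control cell. The rise was 0.84 (SE 0.08, 1.79-fold, adjusted p = 3.88e-08) in parental and 0.64 (SE 0.08, 1.56-fold, adjusted p = 1.53e-06) in NTC cells. The window before the internal LAMB3 start carries the AP-1 letters shown above, and whether they have a part in this rise was not tested.

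LAMC1 encodes the γ1 chain, the γ chain of most laminins. Its parental vehicle arrays read 9.05, 8.82 and 8.83 and its parental HRG arrays 9.48, 9.51 and 9.58. The NTC vehicle arrays read 9.02, 9.03 and 8.91 and the NTC HRG arrays 9.44, 9.45 and 9.35. The groups did not overlap, and LAMC1 rose by 0.63 (SE 0.08, 1.54-fold, adjusted p = 1.45e-06) in parental cells, where it was called. In NTC cells its rise of 0.43 (SE 0.08, 1.35-fold, adjusted p = 0.000132) was under the fold limit, and in the mean of the controls it was 0.53 (SE 0.05, 1.44-fold, adjusted p = 4.45e-08). LAMC1 thus stood just short of a call in the mean, with an interval from 0.42 to 0.64 that spans the limit of 0.58.

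PRG4 encodes lubricin, the proteoglycan that lubricates joints, and COL5A2 a chain of collagen V, which sets the diameter of collagen I fibrils. PRG4 lay at 4.87, 4.70 and 4.66 on the parental vehicle arrays and at 5.63, 5.44 and 5.56 on the HRG arrays. In NTC cells it lay at 4.76, 4.83 and 4.77 without and at 5.28, 5.89 and 5.42 with HRG. The second NTC HRG array was high, and without it the NTC change of 0.74 was 0.56 and no longer called. COL5A2 lay at 5.56, 5.49 and 5.54 on the parental vehicle arrays and at 5.91, 6.10 and 6.24 with HRG. Its NTC arrays read 5.50, 5.38 and 5.44 with vehicle and 6.18, 6.10 and 6.23 with HRG. Groups did not overlap for either gene. In the mean of the controls PRG4 rose by 0.77 (SE 0.08, 1.71-fold, adjusted p = 2.69e-08) and COL5A2 by 0.64 (SE 0.06, 1.56-fold, adjusted p = 7.05e-09), while COL5A2 in parental cells changed 1.47-fold (adjusted p = 1.88e-05), short of the fold limit. Its partner chain COL5A1 had a signal of 5.67 and no call.

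COL12A1, the fibril-associated collagen, and LAMB2, the β2 chain of basement membrane laminins, moved the other way by small amounts. COL12A1 read 10.08, 9.82 and 9.98 on the parental vehicle arrays and 9.67, 9.56 and 9.70 on the HRG arrays. In NTC cells it read 10.08, 10.03 and 10.11 without and 9.61, 9.63 and 9.70 with HRG. The 6 HRG arrays lay below the 6 vehicle arrays. LAMB2 read 9.55, 9.61 and 9.63 with vehicle and 9.30, 9.32 and 9.40 with HRG in parental cells. In NTC cells it read 9.52, 9.52 and 9.42 with vehicle and 9.30, 9.41 and 9.37 with HRG, groups that nearly touched (adjusted p = 0.102). In the mean of the controls COL12A1 fell by 0.37 (SE 0.04, 1.29-fold, adjusted p = 3.38e-07) and LAMB2 by 0.19 (SE 0.04, 1.14-fold, adjusted p = 0.000425), so that within the laminins β3 and γ1 rose while β2 fell. LAMB1, the β1 chain, differed by 0.04 with an interval from -0.04 to 0.12.

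**Figure D2:**
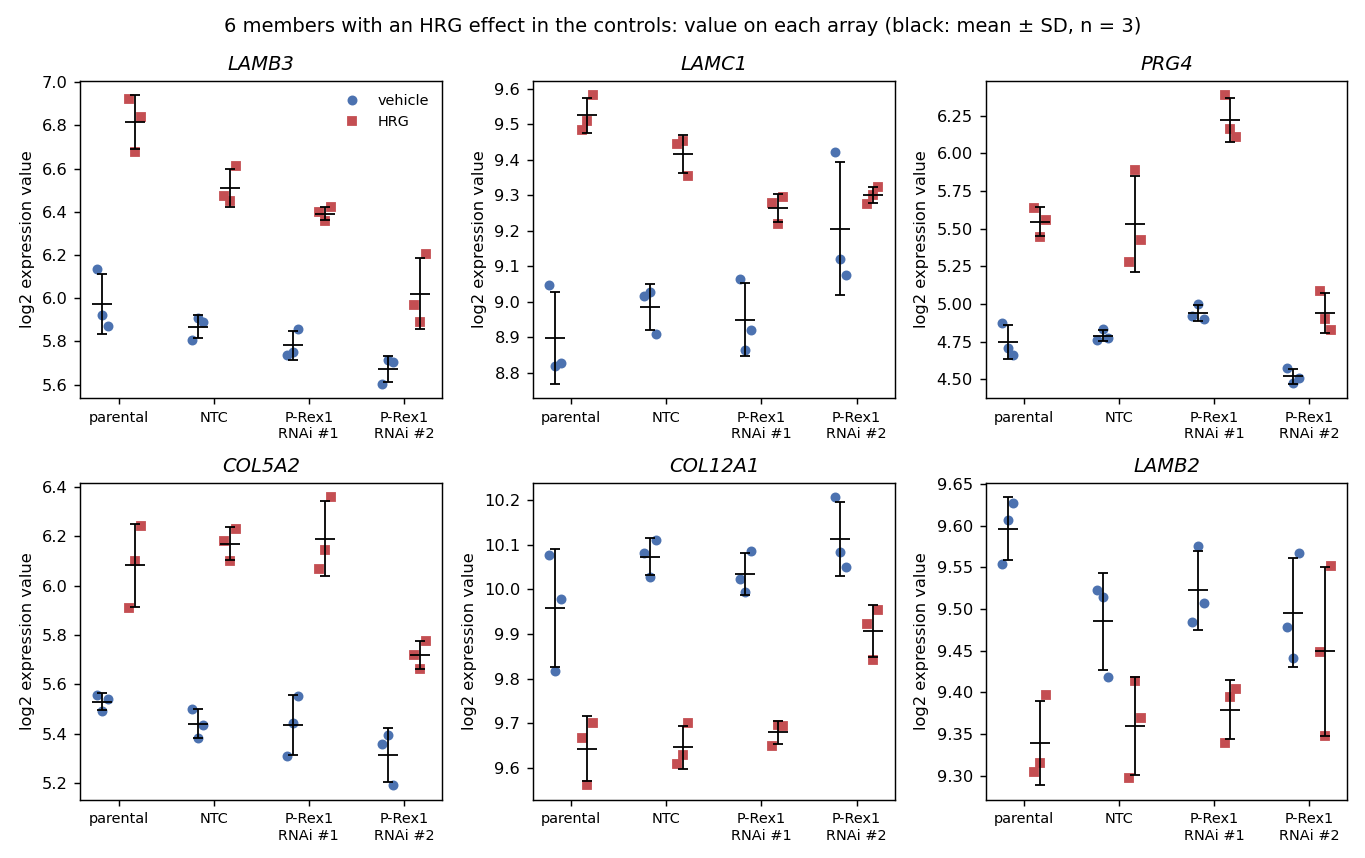
Log2 expression value on each array for LAMB3, LAMC1, PRG4, COL5A2, COL12A1 and LAMB2 in the 4 kinds of cell, with vehicle in blue and HRG in red and the mean ± SD of 3 replicates in black. HRG arrays lie above vehicle arrays in the controls for the first 4 genes and below them for COL12A1, and in cells with RNAi #2 the LAMC1 arrays with and without HRG overlap.

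With 6 control HRG arrays set against 6 control vehicle arrays, LAMB3, LAMC1, PRG4, COL5A2, COL12A1 and LAMB2 each gave an exact two-sided permutation p of 0.00216, the smallest that 6 against 6 arrays allow. The 6 genes were picked for these differences, so the p values describe them and do not stand as independent support.

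Most of the scaffold showed no call with HRG. Beside the 6 genes, COL1A1 (a chain of collagen I) at 0.18 (adjusted p = 0.0126) and HSPG2 (perlecan, a basement membrane proteoglycan) at 0.11 (adjusted p = 0.0178) passed the adjusted p in the mean of the controls. With the adjusted p alone, 6 members were higher and 2 lower, where 17.5% and 22% of all probe sets were. The other 32 members changed by between -0.05 (COL4A1, a collagen IV chain) and 0.08 (COL6A2, a collagen VI chain), and their intervals all lay between -0.17 and 0.22. Of the 40 members, 36 had an interval inside the 1.5-fold limit in both directions, as had 19070 of the 21042 probe sets tested. The next largest falls after COL12A1 and LAMB2 were COL4A1, NID1 (nidogen-1, which links laminin to collagen IV) and LAMA5, at -0.05, -0.05 and -0.04, and none of these passed the adjusted p (0.568, 0.571 and 0.483).

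By role, 0 of the 7 basement membrane collagens were called in the mean of the controls, with a median change of 0.01. Of the 8 laminin chains 1 was called higher, with a median of 0.04. None of the 4 linkers and proteoglycans was called, at a median of -0.03, nor was COL7A1, the anchoring fibril collagen, at -0.02. Among the 6 fibrillar collagens 1 was called higher and the median was 0.07. None of the 8 other collagens was called, at a median of 0.01, and 1 of the 6 matrix glycoproteins was, at a median of 0.03. All probe sets tested had a median of 0.00 and all members one of 0.02. Of all probe sets 2.6% were called higher and 2.69% lower, so counts in groups of 8 or fewer genes do not set a role apart.

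**Figure D3:**
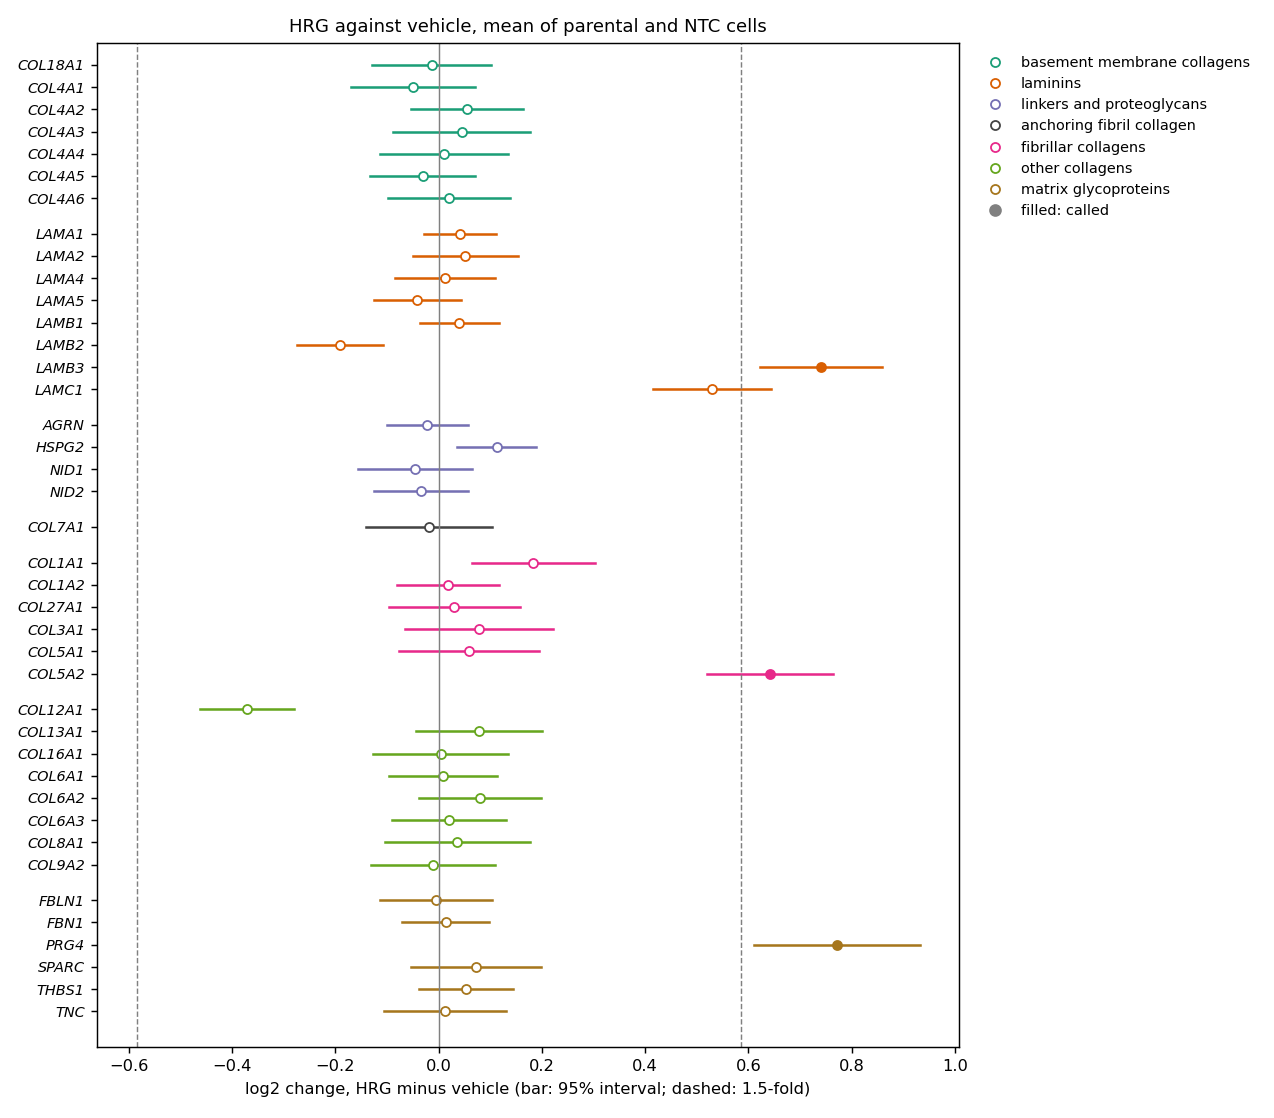
HRG minus vehicle averaged over parental and NTC cells, as a log2 change with its 95% interval, for the 40 members grouped by role. Filled points are called and dashed lines mark the 1.5-fold limit. LAMB3, COL5A2 and PRG4 are filled, the intervals of LAMC1 and COL5A2 span the line, and 36 intervals stay between the lines.

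Between parental and NTC cells 0 of the probe sets tested were called, so 0 called members is not particular to these genes. Without HRG, 0 members were called between them, as were 0% of all probe sets, and 2 members had an unadjusted p under 0.05 in limma, against 5.72% of all probe sets. The HRG effect in NTC cells minus that in parental cells gave 0 calls among members and in 0% of all probe sets, and 5 members had an unadjusted p under 0.05, against 8.21%. The difference was above 0 for 34 of the 40 members, with a median of 0.11 where all probe sets had 0.03, and COL13A1 (a transmembrane collagen) had the largest at 0.33 (adjusted p = 0.603). Genes outside the list leaned the same way, with 65 of 81 other matrix genes above 0 (median 0.12), 6 of 7 endothelial markers (0.12) and 9 of 10 fibroblast markers (0.12). Without the 4 arrays low on that component the members' median was 0.08 and 0 members had an unadjusted p under 0.05.

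On those 4 arrays most members lay high within their group. Each also had the highest median and the highest 25th percentile of its group, as in RNAi #1 vehicle, where the 25th percentile was 4.43 on replicate 2 and 4.31 and 4.35 on the others. The mean of the endothelial markers, all dim here, spread from 4.38 to 4.64 in that group. On each of the 4 arrays 30 or 31 of the 36 members that were never called lay above the mean of their own group, by a median of 0.05 in parental vehicle replicate 3, 0.08 in NTC HRG replicate 3, 0.07 in RNAi #1 vehicle replicate 2 and 0.07 in RNAi #2 HRG replicate 3. Outside the 4, RNAi #2 vehicle replicate 2 had a median of 0.05, with 22 members above its group mean. RNAi #1 HRG replicate 3 had one of 0.03, with 27 members above. The largest downward median was -0.11, in RNAi #1 vehicle replicate 1. Over all probe sets the median deviation on the 4 arrays was between 0.00 and 0.02. LAMB3, COL5A2 and PRG4 were called with HRG in the mean of the controls with and without these arrays.

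**Figure D4:**
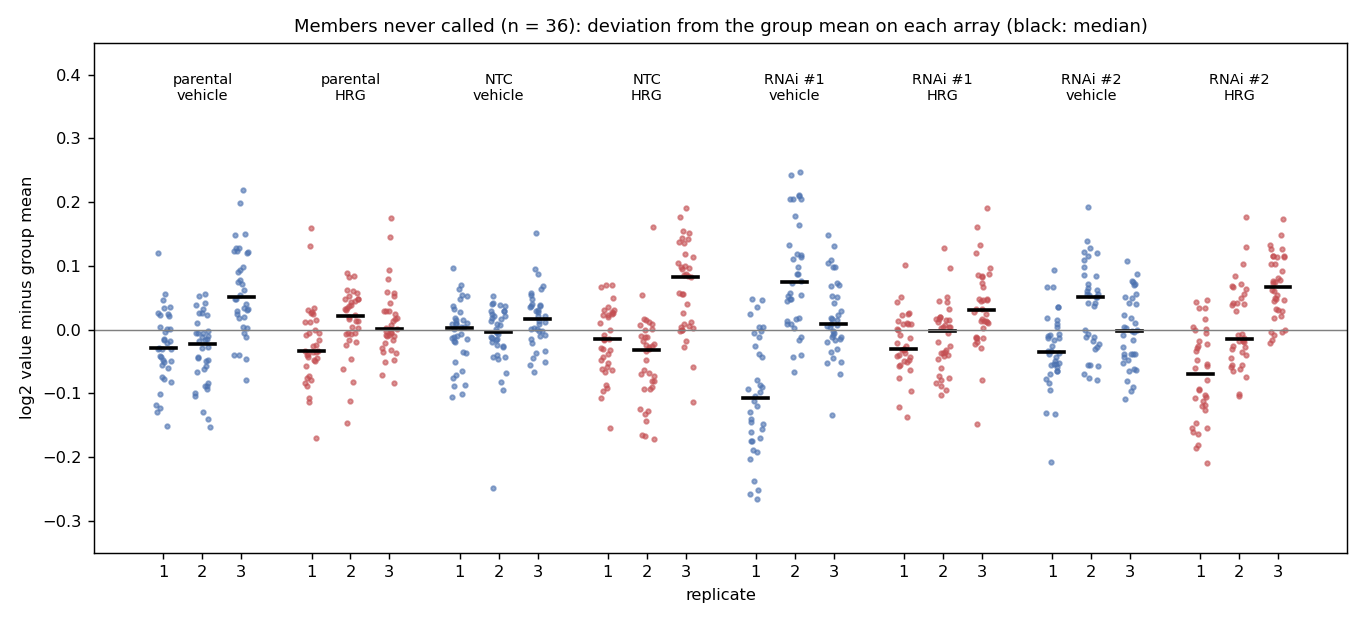
Deviation from the group mean, in log2 units, of the 36 members never called in any comparison, on each of 24 arrays, with the median in black. The medians stand at 0.05 to 0.08 on the 4 arrays low on that component, at 0.05 on RNAi #2 vehicle replicate 2 and at -0.11 on RNAi #1 vehicle replicate 1.

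With P-Rex1 RNAi #1, LAMB3, COL5A2 and PRG4 were again called higher with HRG, and 0 members lower, against 2.52% and 1.15% of all probe sets. PRG4 lay at 4.92, 5.0 and 4.90 on the vehicle arrays and at 6.38, 6.16 and 6.11 on the HRG arrays. Its change of 1.28 (SE 0.11, 2.43-fold, adjusted p = 1.43e-08) was the largest of any member in any kind of cell. LAMB3 lay at 5.74, 5.75 and 5.86 without and 6.40, 6.36 and 6.42 with HRG, a rise of 0.61 (adjusted p = 5.56e-06). COL5A2 rose by 0.75 (adjusted p = 5.31e-07) and LAMC1 by 0.31 (adjusted p = 0.00396), the latter under the fold limit. With the adjusted p alone 6 members fell, where 12.4% of all probe sets did: COL12A1, COL4A2 (collagen IV), LAMA5, COL7A1, COL1A2 and COL16A1 (a fibril-associated collagen). COL12A1 fell by 0.36 and the other 5 by 0.18 to 0.25, and without the 4 arrays low on that component COL12A1 was the 1 of the 6 that still passed.

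With P-Rex1 RNAi #2, 0 members were called in either direction in limma, against 1.07% of all probe sets called higher and 0.656% called lower. With the adjusted p alone 3 members rose, against 8.2%, and 1 fell, against 7.64%, and the same 4 had an unadjusted p under 0.05. LAMB3 lay at 5.60, 5.71 and 5.70 on the vehicle arrays and at 5.97, 5.89 and 6.21 with HRG. PRG4 lay at 4.57, 4.48 and 4.51 without and at 5.09, 4.90 and 4.83 with HRG, and COL5A2 at 5.36, 5.40 and 5.19 and at 5.72, 5.66 and 5.78. The HRG arrays of all 3 genes stayed above the vehicle arrays, with rises of 0.35 (adjusted p = 0.00398) for LAMB3, 0.42 (adjusted p = 0.01) for PRG4 and 0.40 (adjusted p = 0.00151) for COL5A2. COL12A1 fell by 0.21 (adjusted p = 0.0255). The PRG4 rise missed the adjusted p without RNAi #2 HRG replicate 1 (adjusted p = 0.0589), and the COL12A1 fall missed it without RNAi #2 vehicle replicate 1 or HRG replicate 2 (adjusted p up to 0.142). LAMC1 lay at 9.42, 9.12 and 9.08 without and at 9.28, 9.30 and 9.32 with HRG, so the groups overlapped, and its difference of 0.09 did not pass (adjusted p = 0.525). Without vehicle replicate 1, at 9.42, they did not overlap and the difference was 0.20 (adjusted p = 0.0712).

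Whether silencing altered the HRG effect was tested as a difference of effects, against the mean of the parental and NTC effects. With RNAi #1, 0 members were called, against 0.171% of all probe sets, and 0 passed the adjusted p. In limma 1 member had an unadjusted p under 0.05 in the higher direction and 12 in the lower, against 10.7% and 8.18% of all probe sets. The higher one was PRG4 at 0.51 (SE 0.13, adjusted p = 0.0649). The difference was below 0 for 31 of 40 members, at a median of -0.13 where all probe sets had 0.01. All 7 basement membrane collagens were among those below 0, from -0.12 to -0.29 (COL4A2, adjusted p = 0.112). So were all 7 endothelial markers (median -0.18), 4 of 5 leukocyte markers (-0.20), 8 of 10 fibroblast markers (-0.17) and 63 of 81 other matrix genes (-0.10), so this lean was not particular to the members. Without the 4 arrays low on that component, 5 members were lower at an unadjusted p under 0.05 and the median was -0.09. The difference was then still below 0 for 29 of 40 members. Of those arrays, parental vehicle replicate 3, NTC HRG replicate 3 and RNAi #1 vehicle replicate 2 enter this comparison.

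With RNAi #2, 0 members were called, against 0.779% of all probe sets, while 2 laminin chains passed the adjusted p in the lower direction, against 1.85%. HRG was called for fewer of all probe sets with RNAi #2, 1.07% higher and 0.656% lower. In the mean of the controls these shares were 2.6% and 2.69%. Whether the 2 chains differ from this weaker response over all probe sets was not tested. The HRG effect on LAMC1 was smaller by 0.44 (SE 0.10, interval -0.63 to -0.24, adjusted p = 0.00915) and that on LAMB3 by 0.39 (SE 0.10, interval -0.60 to -0.19, adjusted p = 0.0244). With RNAi #1 the effect differed by -0.22 (adjusted p = 0.226) for LAMC1 and by -0.13 (adjusted p = 0.471) for LAMB3. Against NTC cells alone the differences with RNAi #2 were -0.34 (adjusted p = 0.109) and -0.30 (adjusted p = 0.193), so neither passed. LAMB3 also missed the threshold on leaving out RNAi #2 vehicle replicate 2 or 3 or RNAi #2 HRG replicate 1 or 2, with adjusted p between 0.0669 and 0.0817. For COL5A2 the difference was -0.24 (adjusted p = 0.239) and for PRG4 -0.35 (adjusted p = 0.168). In all, 7 members had an unadjusted p under 0.05, against 15.6% of all probe sets.

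**Figure D5:**
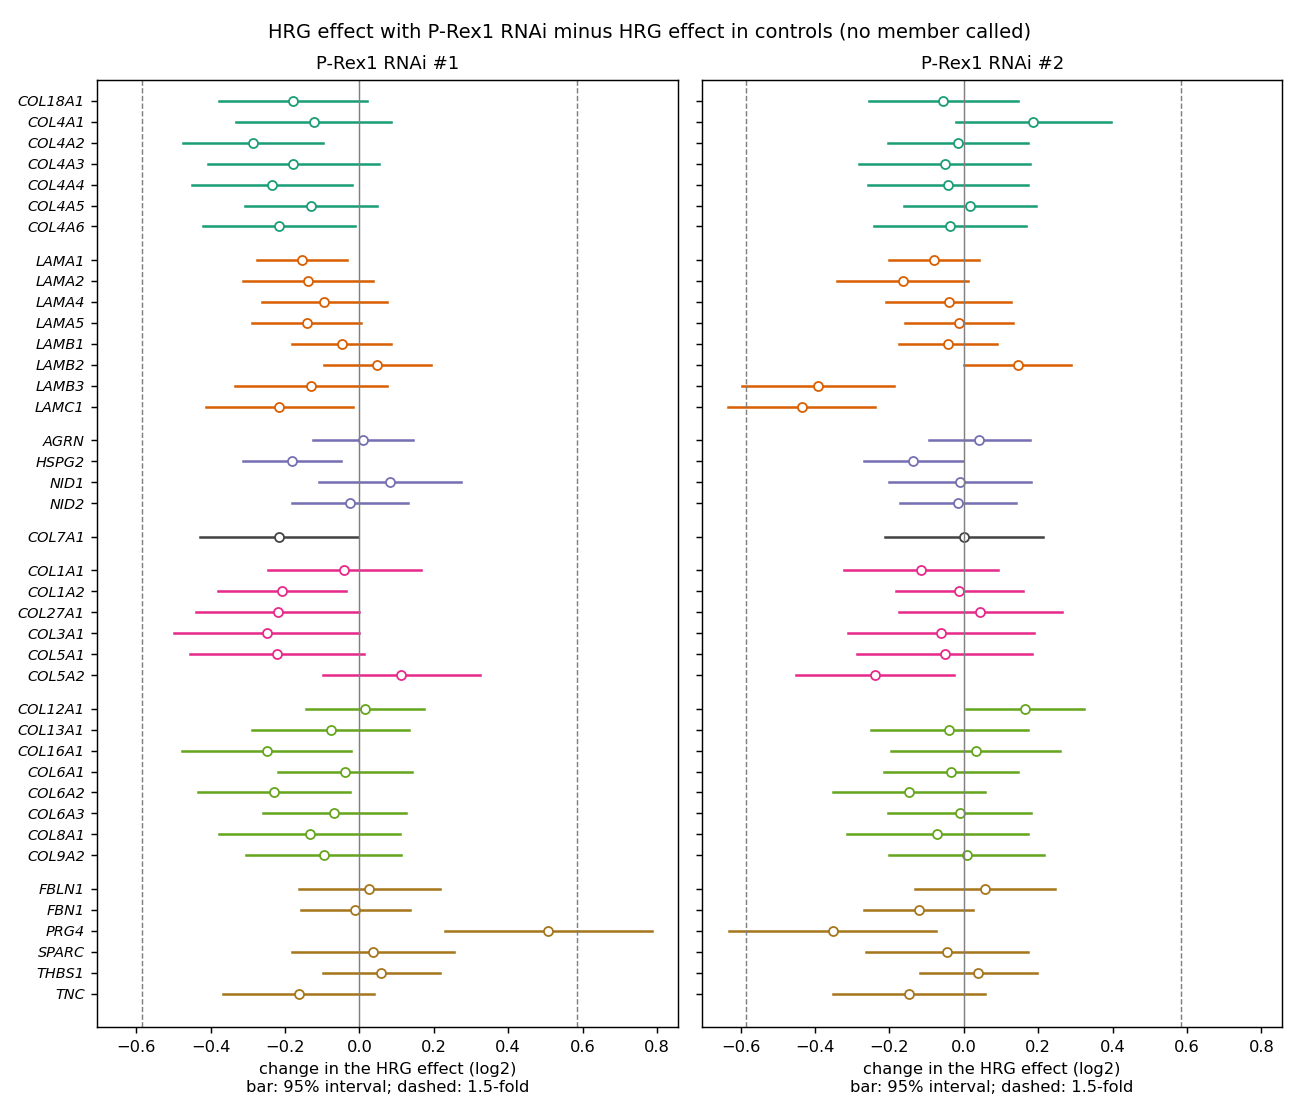
HRG effect with P-Rex1 RNAi #1 (left) or RNAi #2 (right) minus the HRG effect in the controls, as a log2 difference with its 95% interval, for the 40 members. No point is called. PRG4 lies at 0.51 with RNAi #1 and -0.35 with RNAi #2, and LAMC1 and LAMB3 are lowest with RNAi #2 at -0.44 and -0.39.

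The duplexes were also set against each other. Over all probe sets, the HRG effect with RNAi #2 minus that with RNAi #1 was called lower for 13 and higher for 0. It was called for 1 member, against 0.0618% of all probe sets. This was PRG4 at -0.86 (SE 0.15, 1.82-fold, adjusted p = 0.0285), whose HRG arrays lay at 6.11 to 6.38 with RNAi #1 and at 4.83 to 5.09 with RNAi #2. Without the 4 arrays low on that component it was -0.83 (adjusted p = 0.138). The call was also lost on leaving out any single array of the silenced groups other than RNAi #2 HRG replicate 1, with adjusted p from 0.0515 to 0.102. LAMB3, LAMC1 and COL5A2 differed between the duplexes by -0.26, -0.22 and -0.35 (adjusted p = 0.619, 0.679 and 0.482), so a difference between RNAi #1 and RNAi #2 was not shown for them.

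Silencing without HRG gave few calls over all probe sets, so 0 calls among the members does not set them apart. With RNAi #1, 0 members were called against 0.0285% of all probe sets, and 2 had an unadjusted p under 0.05 in limma, against 11.8%. With RNAi #2, 0 were called against 0.181%, and 8 had an unadjusted p under 0.05, against 13.7%. With the adjusted p alone 2 members were higher with RNAi #2, against 0.756%: LAMC1 by 0.27 (SE 0.07, adjusted p = 0.0297) and LAMB1 by 0.19 (SE 0.05, adjusted p = 0.0228). LAMC1 read 9.42, 9.12 and 9.08 there, against 8.82 to 9.05 on the 6 control vehicle arrays, and without RNAi #2 vehicle replicate 1 the difference was 0.16 (adjusted p = 0.26). It also missed the threshold without RNAi #2 vehicle replicate 2, parental vehicle replicate 2 or 3 or NTC vehicle replicate 3, and without the 4 arrays low on that component, with adjusted p from 0.0545 to 0.0702. Against NTC cells alone LAMC1 was higher by 0.22 and also missed the threshold (adjusted p = 0.18). LAMB1 missed it without RNAi #2 vehicle replicate 1 or 2 or parental vehicle replicate 2 (0.151, 0.0798 and 0.0585). LAMB3 lay lower by 0.25 (adjusted p = 0.0529), and without the 4 arrays low on that component it was lower by 0.27 and passed (adjusted p = 0.0133). Against NTC cells alone LAMB3 was lower by 0.19 and did not pass (adjusted p = 0.295). Nor did it pass without RNAi #2 vehicle replicate 1, 2 or 3 (0.225, 0.151 and 0.11).

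Genes that build, modify or bind the matrix beyond the list were read for HRG in the mean of the controls, where 2.6% of all probe sets were called higher and 2.69% lower, and 17.5% and 22% passed the adjusted p alone. Of 81 further matrix genes, 5 were called higher and 0 lower, at a median of 0.02. They were NTN4 (netrin-4, which binds laminin γ chains), CCN1, MATN3 and MATN2 (matrilins) and LUM, at 1.15, 0.96, 0.88, 0.72 and 0.71, named here after their values were seen. Among 30 collagen-modifying enzymes 1 was called higher, TGM2 (transglutaminase-2, a protein cross-linker) at 0.72 (adjusted p = 4.98e-09), and 0 lower. With the adjusted p alone 9 of the 30 were higher and 5 lower, at a median of 0.08 over the list. P4HA1, a prolyl hydroxylase subunit needed for the collagen triple helix, rose by 0.49, and CRTAP, part of the prolyl-3-hydroxylase complex, fell by 0.30. Of 15 non-integrin matrix receptors, with a median of 0.06, 2 were called higher, CD44 (the hyaluronan receptor) at 0.98 (adjusted p = 5.91e-14) and SDC1 (syndecan-1) at 0.60 (adjusted p = 3.56e-10). HMMR, a hyaluronan-binding protein of the mitotic spindle, was the 1 called lower, at -0.69 (adjusted p = 1.98e-06). For the change in the HRG effect, 0.779% of all probe sets were called in either direction with RNAi #2 and 0.171% with RNAi #1. The HRG effect was called smaller with RNAi #2 for 3 of the 81 further matrix genes, NTN4 by 0.94 (adjusted p = 5.12e-05), MATN2 by 0.77 (adjusted p = 1.18e-05) and CCN1 by 0.68 (adjusted p = 0.00264). With RNAi #1 the HRG effect was called smaller for 0 of them, and for MATN2 it was smaller by 0.56 (adjusted p = 0.00339). For 0 of the 30 enzymes and 0 of the 15 receptors was it called with either duplex, and CD44 came nearest at -0.58 with RNAi #2 (adjusted p = 5.04e-05), just short of the fold limit.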

How the data were processed

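RNA of 24 T-47D cultures was hybridised to Affymetrix Human Gene 1.0 ST arrays. The authors deposited log2 values that they had normalized by RMA with the simpleaffy package (version not stated in the methods). They carry no counts, so the number of arrays limits the precision. All 21042 probe sets with a gene symbol in the platform annotation entered 1 limma 3.58.1 fit (R 4.3.3) with a mean per group and Benjamini-Hochberg adjustment, tested on simulated data. The Rank Products test of the study's methods, which permutes ranks over genes, was not run. Single genes were compared by exact permutation (Python 3.11.15, scipy 1.17.1), and figures drawn with matplotlib 3.10.9.

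Members, lists, tests and alternatives were chosen with earlier results of these data known. Named genes are members called in any comparison, the 5 largest rises and falls with HRG in the controls, the 5 brightest and 5 dimmest, and called matrix enzymes and receptors. Some genes are named beyond this rule, such as HSPG2, which passed the adjusted p alone. P4HA1 and CRTAP, neither called, had the largest uncalled rise and fall among the enzymes. A laminin chain outside the list that the rule also named is not reported here. Groups came from the labels. Comparisons with silenced cells share the control arrays. Alternatives were the replicate number as a block, the lowest 25% of probe sets left out, all probe sets, an intensity trend with a robust prior, no fold limit, NTC as the only control, and arrays left out.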

Additional observations from a re-analysis of the deposited data

Results flagged for a closer look

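The HRG effect on LAMC1 and LAMB3 was smaller under RNAi #2 than in control cells by the test of the difference, at -0.44 (adjusted p = 0.00915) and -0.39 (adjusted p = 0.0244). Both were under the 1.5-fold limit, and neither passed against NTC cells alone. With RNAi #1 the differences were -0.22 (adjusted p = 0.226) for LAMC1 and -0.13 (adjusted p = 0.471) for LAMB3. On the vehicle arrays LAMC1 was higher with RNAi #2 than in the controls by 0.27, or by 0.16 without RNAi #2 vehicle replicate 1.

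The HRG effect on PRG4 differed between the duplexes, at -0.86 for RNAi #2 minus RNAi #1 (adjusted p = 0.0285). With 1 array of the RNAi #1 or RNAi #2 groups left out, the difference lay between -0.78 and -0.92 for the 11 of 12 arrays where the call was lost, with adjusted p from 0.0515 to 0.102. A cause of either difference was not tested. Groups of 3 arrays are too small for a test of single outlying arrays.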

How the results depend on the processing

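With no fold limit the members called numbered 6 for HRG in parental cells, 8 in NTC cells, 8 in the mean of the controls, 10 with RNAi #1, 4 with RNAi #2, 2 for the change in the HRG effect with RNAi #2 and 2 for RNAi #2 without HRG, where 30.8%, 31.2%, 39.5%, 27.3%, 15.8%, 3.94% and 3.35% of all probe sets passed. Leaving out 1 array at a time gave 0 to 1 calls for the change in the HRG effect with RNAi #1, where NTC HRG replicate 2 decided it (PRG4 at 0.60, adjusted p = 0.00703), and 0 to 1 for RNAi #2 against RNAi #1, which had 0 calls without the 4 arrays lowest on the second component. COL5A2 in parental cells was called, at 0.64, without parental HRG replicate 1. Of 2886 values of named members under the alternatives, 2871 stayed on their side of the call, 13 lost it, 2 gained it and 0 changed sign while called. Many of these alternatives left out an array that the comparison does not use, where the log2 change cannot move. Many of the values also lie far under the fold limit, so the total does not measure how stable a call is. The replicate block changed no call, with 3 members called for HRG in the mean of the controls. It fits 1 effect per replicate number over all kinds of cell, so it does not model pairs of vehicle and HRG arrays within a kind. Deviations from the group mean were correlated between same-numbered vehicle and HRG arrays of 1 kind of cell. The correlations were -0.05 to 0.39 over 12 pairs, 10 of them over 0.1. In 10 of the 12 the vehicle array correlated best with the HRG array of its own number, a hint of pairing in the data. The numbers were not taken as pairs because the labels tie them to no shared culture or day and 2 pairs were under 0.1. Leaving out the lowest 25% of probe sets removed 14 members from the fit. Choosing another probe set per gene was not run, because each member had 1. Values of dim members understate change, and 3 arrays a group limit the precision of every value.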
